A study of Rattus norvegicus with 8 samples.

Results

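The habenula, a small epithalamic structure that links the forebrain with midbrain monoamine neurons, was profiled in 8 male Sprague-Dawley rats with 1 whole-transcript microarray per rat. The stressed group held 4 rats (rats 7, 8, 10 and 12) that were restrained in plastic film envelopes, 2 hours daily for 14 days. The control group held 4 rats (rats 1, 3, 4 and 5) that stayed unstressed in their home cages. The ages of the rats and the interval between the last restraint and dissection were not stated in the sources used here. The genes described here are 7 enzymes of fuel, lipid, sulfur and drug metabolism, each read by 1 probe set whose annotation gives that single gene symbol: Pdk4, Gpd1, Acer2, Pla2g3, Sult1a1, Cyp2j4 and Cth. They are 7 of the 379 probe sets in the authors' deposited table, of which 283 have 1 gene symbol.

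That table had itself been chosen on these 8 arrays. The p-values of the authors' deposited table reach 0.0499 at most, and the smallest absolute log2 difference between the groups is 0.26, a fold of 1.20, and in the authors' deposited table the p-values of the 7 enzymes run from 0.000287 to 0.0208. The enzymes were then picked from it by name. The differences between stressed and non-stress rats below are therefore descriptions, and no test of them is read. All 7 passed limma's threshold (Benjamini-Hochberg adjusted over the table), 6 of them higher and 1 lower in the stressed rats, as did 100% of the table, 44.6% higher and 55.4% lower. These counts follow from the choice and say nothing about the enzymes. The values are log2 intensities, a difference of 1 is a 2-fold change, and each difference, given with its limma standard error, is that of stressed minus non-stress rats. The arrays' medians over the table lay between 8.60 and 8.77. Since the tissue is mixed, a change in the number of cells of 1 type and a change in RNA per cell cannot be told apart.

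The 7 enzymes stand at separate points of metabolism. PDK4 phosphorylates and shuts off the pyruvate dehydrogenase complex, which decides whether carbon from glucose enters the citric acid cycle, and its gene is induced by fasting and by glucocorticoids in many tissues. GPD1 turns a glycolytic intermediate into glycerol 3-phosphate, the backbone of glycerolipids, and reoxidizes NADH; in rat brain it is long known as a glucocorticoid-inducible enzyme of oligodendrocytes. ACER2 splits ceramide in the Golgi, PLA2G3 releases fatty acids from phospholipids outside the cell, and CYP2J enzymes can turn released arachidonic acid into epoxides. SULT1A1 attaches sulfate to phenols, drugs among them, and CTH makes cysteine from cystathionine and can release hydrogen sulfide.

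Upstream sequence was matched by gene ID in a set of promoter sequences of the rat assembly GRCr8 for 5 of the 7 enzymes. Gpd1 and Pla2g3 are annotated genes of that assembly but had no entry in the promoter set. The sequences of Pdk4, Acer2 and Sult1a1 are shown because, of the enzymes with an entry, these 3 were lowest in the same stressed rat and had positive correlations with one another within groups, as described further on. They are the bases before the annotated gene, read 5′ to 3′ on the gene's strand, from chr4:34568330-34568579 (minus strand) for Pdk4, chr5:106437598-106437772 (plus strand) for Acer2 and chr1:190706113-190706362 (minus strand) for Sult1a1. Capitals mark a GC box (GGGCGG), a glucocorticoid receptor half-site (TGTTCT) or a CCAAT box (spelled as its name), each on either strand.
Pdk4: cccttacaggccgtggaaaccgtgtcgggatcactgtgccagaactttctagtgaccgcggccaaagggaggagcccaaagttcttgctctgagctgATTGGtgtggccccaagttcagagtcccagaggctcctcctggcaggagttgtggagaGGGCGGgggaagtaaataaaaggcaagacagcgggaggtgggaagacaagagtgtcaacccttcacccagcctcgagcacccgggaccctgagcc
Acer2: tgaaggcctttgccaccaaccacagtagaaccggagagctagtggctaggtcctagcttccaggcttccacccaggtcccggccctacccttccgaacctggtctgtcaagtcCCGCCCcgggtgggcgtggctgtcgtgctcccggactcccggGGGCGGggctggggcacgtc
Sult1a1: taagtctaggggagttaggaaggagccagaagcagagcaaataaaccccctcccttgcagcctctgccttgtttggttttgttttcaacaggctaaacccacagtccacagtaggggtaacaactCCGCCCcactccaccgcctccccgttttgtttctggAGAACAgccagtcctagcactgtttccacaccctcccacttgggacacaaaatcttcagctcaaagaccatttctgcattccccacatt

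A GC box was found in all 5 enzymes' upstream windows of 250 bases, against 30.5% of the 33469 windows of that length in the promoter set. The half-site TGTTCT was found in Sult1a1, as AGAACA on the printed strand with its first base at -89, and in 17.5% of all windows. A CCAAT box was found in Pdk4, at -153, and in Cth, at -73, against 34.0% of all windows. The E-box CACGTG was found in Cyp2j4, at -210, and in Cth, at -178, against 5.59% of all windows. The full glucocorticoid response element (the half-site after its own reverse complement, with any 3 bases between) and the PPAR element (AGGTCA given in direct repeat, with any 1 base between) were in none of the 5 windows, and in 0.0120% and 0.0508% of all windows. A match is a run of letters and not a shown binding site, and the elements that control a gene can lie far outside these windows. The promoter set's start sites of Acer2 and Cyp2j4 lie inside the annotated genes, by 75 and 177 bases of the window, and those bases are not printed.

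Of the 7 enzymes, 6 were higher in the stressed rats and 1, Cyp2j4, was lower. The median difference over the 7 was 0.78, where the median of the whole table was -0.28 and that of its 169 higher probe sets was 0.32. Differences of more than 1.5-fold were seen for 6 of the 7, against 8.18% of the table. The groups did not overlap for any of the 7, against 83.4% of the table, and since the contrast chose the table nothing is read from either count. By absolute size among the 379 probe sets, Pdk4 had the 2nd largest difference, Gpd1 the 4th, Acer2 the 7th, Pla2g3 the 9th, Sult1a1 the 10th, Cyp2j4 the 14th and Cth the 216th.

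**Figure D1:**
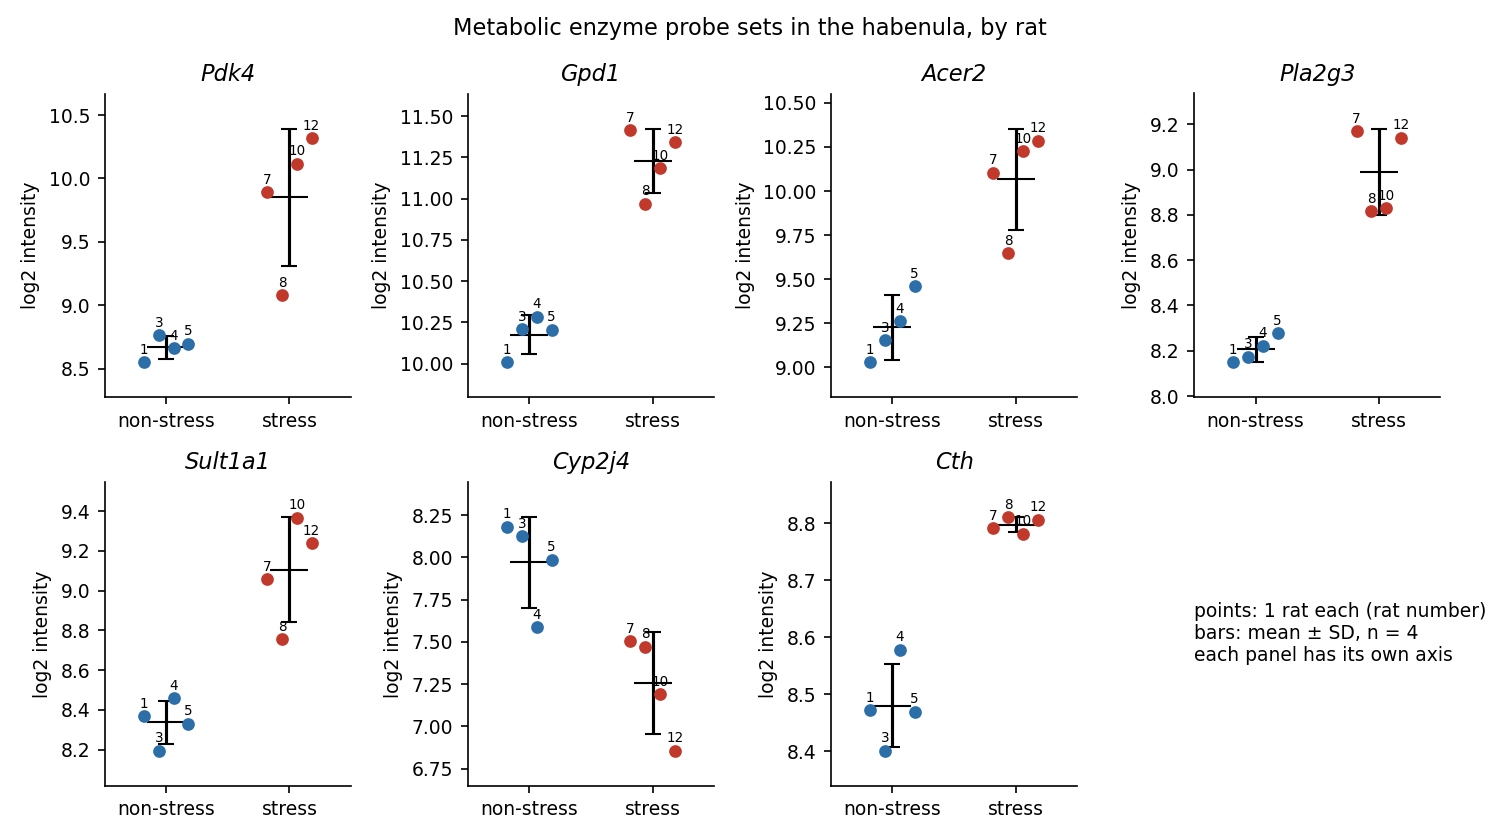
Log2 intensity of each enzyme's probe set (vertical axis, a separate scale per panel) in 4 non-stress rats (blue) and 4 stressed rats (red), with rat numbers, and the mean ± SD as black bars. The groups do not overlap in any panel, and stressed rat 8 is the lowest red point for Pdk4, Gpd1, Acer2, Pla2g3 and Sult1a1.

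Pdk4, at the entry of pyruvate into the citric acid cycle, had the largest difference of the 7. Its log2 values were 8.55, 8.76, 8.66 and 8.70 in non-stress rats 1, 3, 4 and 5, and 9.89, 9.08, 10.12 and 10.32 in stressed rats 7, 8, 10 and 12. The non-stress rats were close together, and stressed rat 8 lay between them and the other stressed rats. The means were 9.85 ± 0.54 against 8.67 ± 0.09 (SD, n = 4 each), a difference of 1.18 ± 0.18 or 2.27-fold. The SD of the stressed rats was 6.17 times that of the non-stress rats. Without stressed rat 8 the difference was 1.44.

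Gpd1, at the branch from glycolysis to glycerolipids, was separated from the non-stress rats by the widest gap of the 7. Its values were 10.01, 10.21, 10.28 and 10.20 in non-stress rats 1, 3, 4 and 5, and 11.42, 10.97, 11.18 and 11.34 in stressed rats 7, 8, 10 and 12. The lowest stressed rat lay 0.69 above the highest non-stress rat. The means were 11.23 ± 0.20 against 10.18 ± 0.12, a difference of 1.05 ± 0.10 or 2.07-fold.

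Among the lipid-cleaving enzymes, the ceramidase gene Acer2 read 9.03, 9.15, 9.26 and 9.46 in non-stress rats 1, 3, 4 and 5, and 10.10, 9.65, 10.23 and 10.29 in stressed rats 7, 8, 10 and 12. Stressed rat 8 was only 0.19 above the highest non-stress rat. The difference was 0.84 ± 0.12, or 1.79-fold, between means of 10.07 ± 0.29 and 9.23 ± 0.18.

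The secreted phospholipase gene Pla2g3 read 8.15, 8.17, 8.22 and 8.28 in the non-stress rats, in the same order, and 9.17, 8.82, 8.83 and 9.14 in stressed rats 7, 8, 10 and 12. The stressed rats formed a pair near 8.8 (rats 8 and 10) and a pair near 9.15 (rats 7 and 12), both far from the non-stress rats. The difference was 0.78 ± 0.09, or 1.72-fold, between means of 8.99 ± 0.19 and 8.21 ± 0.06.

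Cyp2j4, annotated as a cytochrome P450 of the arachidonate epoxygenase subfamily, was the only enzyme of the 7 with lower values after restraint. It read 8.18, 8.13, 7.59 and 7.99 in non-stress rats 1, 3, 4 and 5, and 7.50, 7.47, 7.19 and 6.86 in stressed rats 7, 8, 10 and 12. Non-stress rat 4 was only 0.083 above the highest stressed rat, the narrowest gap of the 7. The difference was -0.71 ± 0.14, a fold of 1.64 in favour of the non-stress rats, between means of 7.26 ± 0.30 and 7.97 ± 0.27. The rat carries several closely related Cyp2j genes, and probe sequences were not used here, so the signal may include related transcripts.

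Sult1a1, the phenol sulfotransferase gene, read 8.37, 8.19, 8.46 and 8.33 in non-stress rats 1, 3, 4 and 5, and 9.06, 8.76, 9.37 and 9.24 in stressed rats 7, 8, 10 and 12. All stressed rats were above all non-stress rats, with rat 8 again the lowest. The difference was 0.77 ± 0.11, or 1.70-fold, between means of 9.11 ± 0.27 and 8.34 ± 0.11.

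Cth, the cystathionine gamma-lyase gene, had the smallest difference of the 7 and a different spread. It read 8.47, 8.40, 8.58 and 8.47 in non-stress rats 1, 3, 4 and 5, and 8.79, 8.81, 8.78 and 8.81 in stressed rats 7, 8, 10 and 12. The stressed rats were nearly identical, with an SD of 0.013 against 0.073 in the non-stress rats. The difference was 0.32 ± 0.08, or 1.25-fold. The other 6 enzymes varied more among stressed than among non-stress rats, by SD ratios of 1.12 (Cyp2j4) to 6.17 (Pdk4), whereas 32.2% of the table's probe sets did so. The deposited p-values depend on these SDs, so the comparison with the table is a description.

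The rats of a group also differed from each other in a patterned way. Stressed rat 8 was the lowest stressed rat for 5 of the 6 higher enzymes, and it was the lowest for 75 of the table's 169 higher probe sets (44.4%). Its deviations from the stressed mean were -0.77 for Pdk4, -0.42 for Acer2, -0.35 for Sult1a1, -0.26 for Gpd1 and -0.17 for Pla2g3, against 0.013 for Cth and 0.22 for Cyp2j4. Among the non-stress rats, rat 1 was the lowest for Pdk4, Gpd1, Acer2 and Pla2g3, and for 77 of the 169 higher probe sets (45.6%). For Cyp2j4 the low rats were others, namely non-stress rat 4 and stressed rat 12.

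**Figure D2:**
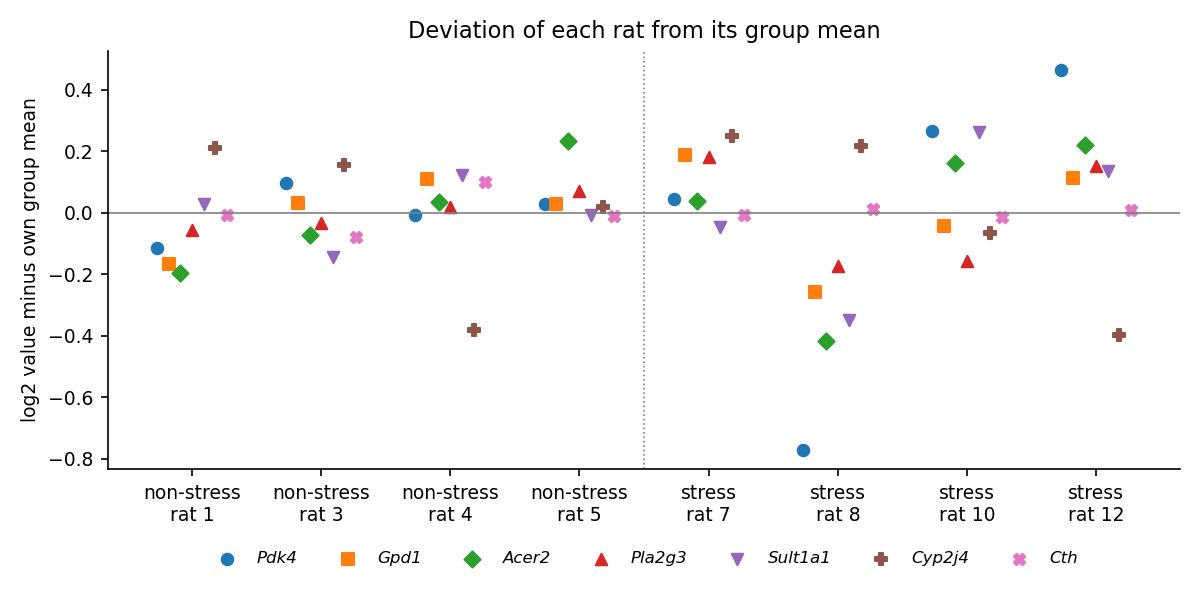
Deviation of each rat's log2 value from the mean of its own group (vertical axis) for the 7 enzymes (symbols) in 4 non-stress and 4 stressed rats (horizontal axis). Stressed rat 8 lies below its group mean for 5 enzymes, most of all for Pdk4 at -0.77, while Cth stays within 0.10 of its group mean in every rat.

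Within-group covariation was measured on these deviations over 8 rats, so that the difference between the groups plays no part. Over all 8 rats the 10 pairs among Pdk4, Gpd1, Acer2, Pla2g3 and Sult1a1, the 5 enzymes grouped here because stressed rat 8 was lowest for each, had a positive Pearson's r, from 0.21 to 0.87 with a median of 0.73. That grouping itself favours a positive r. Of all pairs among the table's other 163 higher probe sets, 67.3% were positive, with a median r of 0.20. Each of the 5 was positive with 71.8% (Pla2g3) to 87.1% (Acer2) of those 163. The common sign of the 10 pairs rests on stressed rat 8. Without it the median was 0.22 and 3 of the 10 pairs were negative: Pla2g3 with Sult1a1 (-0.55), Gpd1 with Sult1a1 (-0.41) and Pdk4 with Pla2g3 (-0.03), while Pdk4 with Gpd1 went from 0.71 to 0.06. With the 2 rats farthest from the median of one enzyme of each pair left out, 5 of the 10 were negative, and after quantile normalization 1 was (Pla2g3 with Sult1a1, -0.0090).

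Cyp2j4 had a negative r with each of the other 6 enzymes over all 8 rats, from -0.64 with Sult1a1 to -0.26 with Pla2g3. That common sign also rests on single rats, since r with Pla2g3 was 0.10 without stressed rat 12 and r with Cth went from -0.59 to -0.09 without non-stress rat 4. Of the table's other 163 higher probe sets, only 15.95% had a positive r with Cyp2j4, and the median r was -0.31. A negative r with Cyp2j4 was therefore common among the higher probe sets and not particular to the enzymes. Cth showed no common direction, with r from -0.59 with Cyp2j4 to 0.25 with Sult1a1. Since r pools both groups, the group with the larger SD weighs most in it. For Cth that was the non-stress group (SD 0.073 against 0.013), and for Pdk4 the stressed group (SD 0.54 against 0.09). Such SDs limit how large r of Cth with Pdk4 can be, so nothing is read from its low values.

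Each relation was tested with a 2-sided exact permutation of rats within groups (smallest possible p 0.00174) and adjusted over 35 relations, which were the 21 pairs of enzymes and the relations of each enzyme with a glucocorticoid and a medial habenula score. None of the 35 passed at an adjusted p of 0.05 by Pearson's r or by Spearman's rho, while 5 and 3 were under 0.05 before adjustment. Of the pairs of enzymes, Pdk4 and Acer2 had the highest Pearson's r over all 8 rats (r = 0.87, exact permutation p = 0.0139, adjusted p = 0.162; rho = 0.67, exact permutation p = 0.0816, adjusted p = 0.571). Without stressed rats 8 and 12, the farthest from the median of Pdk4, r was 0.50 (exact permutation p = 0.271), so these 2 rats carry much of the relation. With the arrays centred on their medians r was 0.83 and its adjusted p in the same exact permutation test was 0.0203, so whether the pair passes depends on the scaling. By Spearman's rho the highest pair was Gpd1 and Pla2g3, with r = 0.83 (exact permutation p = 0.0382, adjusted p = 0.334; rho = 0.90, p = 0.0521, adjusted p = 0.456). For them r was 0.87 without non-stress rat 1 and stressed rat 8 (exact permutation p = 0.167).

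**Figure D3:**
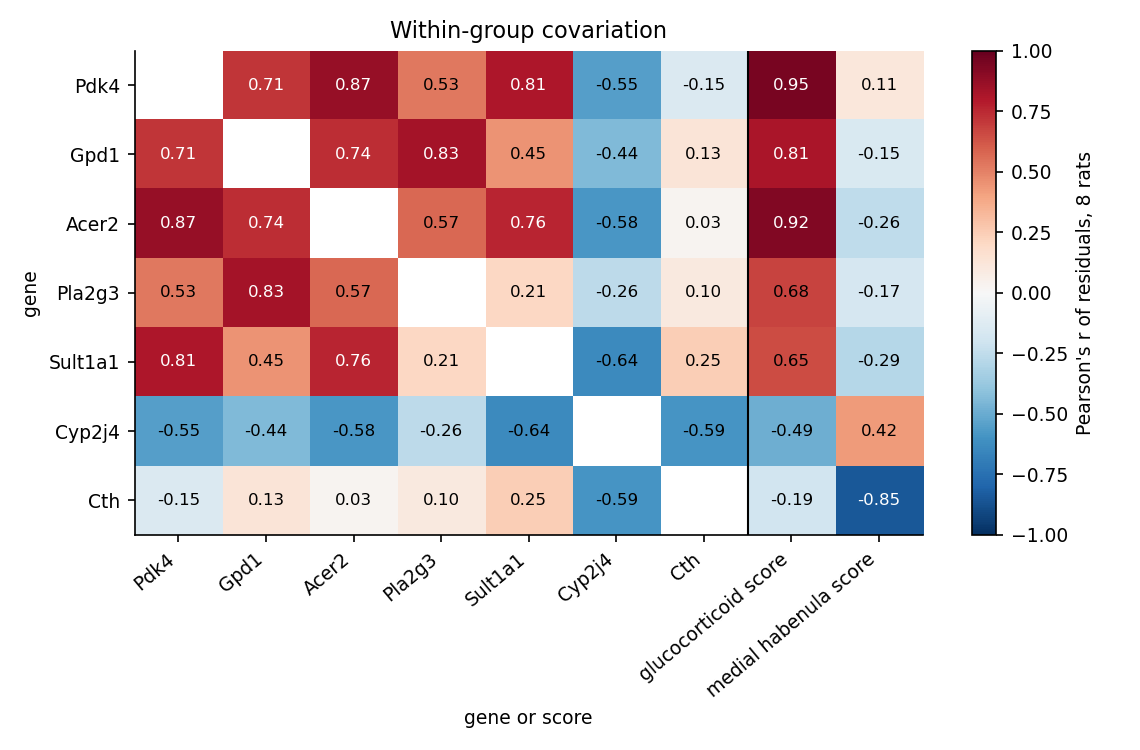
Pearson's r (colour and number) of deviations from the group mean over 8 rats, for each pair of the 7 enzymes and, right of the black line, for each enzyme with the glucocorticoid and medial habenula scores. Over all 8 rats the 10 pairs of Pdk4, Gpd1, Acer2, Pla2g3 and Sult1a1 are positive and Cyp2j4 is negative with every other enzyme, but without stressed rat 8 alone 3 of the 10 are negative, and without stressed rat 12 alone Cyp2j4 has r = 0.10 with Pla2g3.

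The glucocorticoid score averages 19 glucocorticoid responsive genes of the table other than the 7 enzymes, each taken as log2 value after subtraction of that gene's 8-rat mean. Those genes include Zbtb16, Sgk1, Fkbp5, Ddit4 and Per1, and 18 of the 19 were higher in the stressed rats, against 44.6% of the table. The list had 35 symbols, and those outside the table have no values here. The score was 0.33, 0.09, 0.33 and 0.42 in stressed rats 7, 8, 10 and 12, and between -0.37 and -0.23 in the non-stress rats. Since the contrast chose the table, nothing is read from the count or from the distance between the groups' scores. Stressed rat 8, the lowest stressed rat for 5 of the enzymes, also had the lowest score of its group.

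Within groups and over all 8 rats, Pdk4 had the highest Pearson's r with this score (r = 0.95, exact permutation p = 0.00868, adjusted p = 0.162; rho = 0.79, p = 0.0486, adjusted p = 0.456). Without stressed rats 8 and 12 its r was 0.60 (exact permutation p = 0.146). Acer2 had the highest Spearman's rho, with r = 0.92 (exact permutation p = 0.0139, adjusted p = 0.162; rho = 0.93, p = 0.0122, adjusted p = 0.425), and r = 0.55 without non-stress rat 1 and stressed rat 8 (exact permutation p = 0.333). With the arrays centred on their medians Acer2 had the higher r of the pair, at 0.98 against 0.85 for Pdk4, both with an adjusted exact permutation p of 0.0203. Without stressed rat 8 alone r was 0.76 for Pdk4 and 0.75 for Acer2 (adjusted exact permutation p = 0.681 for both). Gpd1 had r = 0.81, Pla2g3 0.68 and Sult1a1 0.65, while Cyp2j4 had -0.49 and Cth -0.19 (adjusted exact permutation p from 0.340 to 0.645 over these 5). Without stressed rat 8 r was 0.49 for Gpd1, 0.44 for Pla2g3 and -0.23 for Sult1a1, and without the 2 farthest rats it was -0.04 for Gpd1 and -0.06 for Sult1a1. With the arrays centred on their medians r was 0.12 for Cth.

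**Figure D4:**
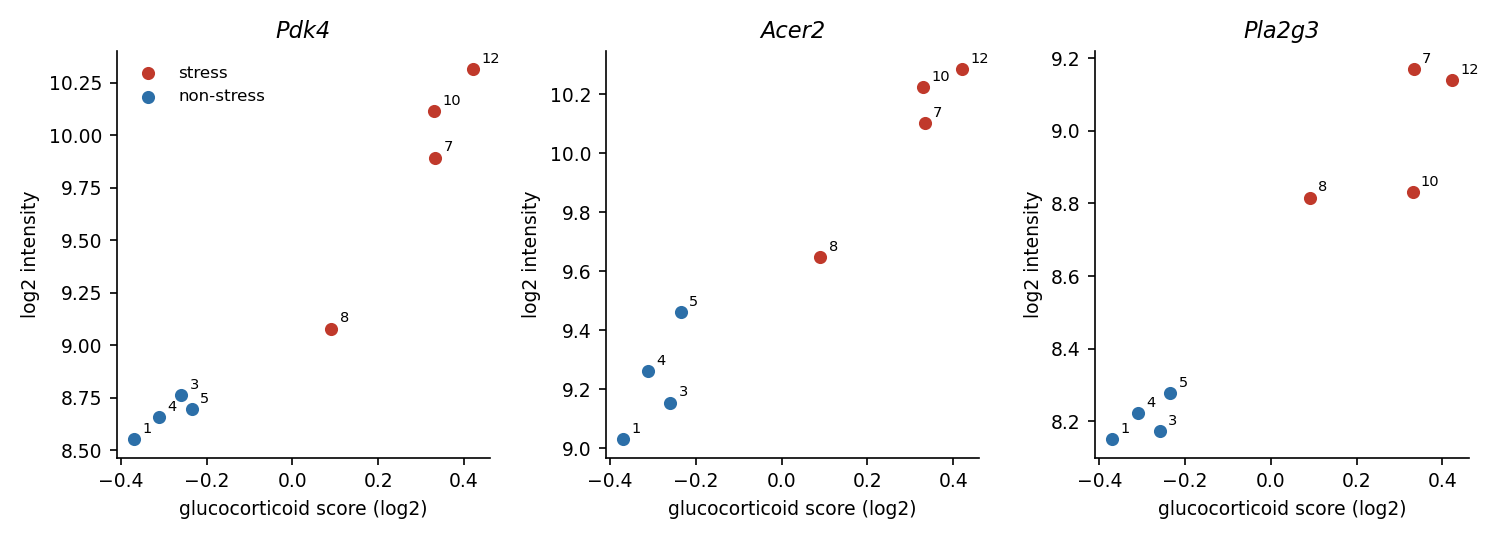
Log2 intensity of Pdk4, Acer2 and Pla2g3 (vertical axes) against the glucocorticoid score (horizontal axis, log2 units) in each rat, with rat numbers, stressed rats in red and non-stress rats in blue. Stressed rat 8 has the lowest score of the stressed rats, 0.09, and the lowest value of its group in each panel.

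By a fixed rule, the 3 genes with the highest within-group r over 8 rats were named for each enzyme, as a description of likeness in pattern with no p. These r were not recomputed without any rat. For Pdk4 the 3 were Arrdc2 (0.99), Ddit4 (0.97) and Errfi1 (0.97), which are also in the glucocorticoid list. Stressed rat 8 was the lowest stressed rat for Pdk4 and for each of the 3. The SD of the stressed rats was 3.33 (Arrdc2), 3.20 (Ddit4), 4.30 (Errfi1) and 6.17 (Pdk4) times that of the non-stress rats, so the stressed rats weigh most in these r. For Acer2 the nearest were the kinase gene Sgk1 (0.94), the period gene Per1 (0.93) and the matrix protein gene Ccn2 (0.93). For Gpd1 they were Ch25h, which encodes cholesterol 25-hydroxylase (0.93), Rin3 (0.88) and Apold1 (0.84). For Pla2g3 they were Fkbp5, which encodes a partner of the glucocorticoid receptor (0.96), Eva1a (0.88) and Ch25h (0.86).

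Ch25h was thus among the 3 nearest of both Gpd1 and Pla2g3. For Sult1a1 the nearest were Defb28 (0.94), Tmem252 (0.93) and Mmp3 (0.92). For Cyp2j4 they were C18h5orf63 (0.78), Acaa2, a mitochondrial thiolase gene of fatty acid oxidation (0.78), and St8sia2 (0.77), all lower in the stressed rats. For Cth they were Adarb1 (0.91), Usp2 (0.88) and Psmb9 (0.87).

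Around the 7 enzymes, 7 lists of metabolic genes with 385 symbols were looked up, and 18 of these genes were in the table, the 7 enzymes among them. The other 11 divided into 5 higher and 6 lower, and all passed limma's threshold, as 100% of the table did. A gene outside the table was either short of the authors' choice or not measured, which these data cannot separate.

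In the list for pyruvate, glucose and lactate use, with 58 symbols, 3 genes were in the table and all were higher. Besides Pdk4 these were Slc19a3, which carries thiamine, the vitamin cofactor of pyruvate dehydrogenase, and the glucose transporter gene Slc2a1. Slc19a3 ranged from 8.96 to 9.63 in the stressed and from 8.44 to 8.79 in the non-stress rats, a difference of 0.76 ± 0.13. Slc2a1 ranged from 12.11 to 12.21 and from 11.81 to 11.97, a difference of 0.27 ± 0.08.

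The lists for glycerol phosphate and triglyceride genes (35 symbols) and for ceramide and sphingolipid genes (46 symbols) held in the table only Gpd1 and only Acer2. Of the list for fatty acid oxidation and PPAR genes (46 symbols) only Fabp7, a brain fatty acid binding protein, was in the table, and it was lower, at -0.28 ± 0.08. The list does not hold every such gene: the thiolase gene Acaa2, which it leaves out, was in the table and lower, at -0.30 ± 0.08. The phospholipase and eicosanoid list (58 symbols) held Pla2g3, Cyp2j4 and Ptger3, a prostaglandin E2 receptor gene, which was higher by 0.34 ± 0.09.

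The xenobiotic and drug metabolism list, with 99 symbols, had 7 genes in the table, 3 higher and 4 lower. That split depends on the symbols listed. Adh1c (0.27 ± 0.08) and Ugt2b (0.28 ± 0.08), relatives of listed genes but not listed themselves, were in the table and higher. Of the 7, Sult1a1, the flavin monooxygenase gene Fmo2 (0.56 ± 0.12) and the cytochrome P450 gene Cyp2d2 (0.34 ± 0.10) were higher. Stressed rat 8 was the lowest stressed rat for Fmo2 and Cyp2d2 as for Sult1a1, and for 44.4% of the table's higher probe sets. In rat 8 Fmo2 read 7.31, against a range of 7.13 to 7.26 in the non-stress rats. Cyp2d2 read 6.72 in rat 8, within the non-stress range of 6.54 to 6.76, so its groups overlapped. Cyp2j4 was lower, as were the organic anion transporter genes Slco1a4 (-0.32 ± 0.08) and Slco1c1 (-0.29 ± 0.08). Papss2, which makes the activated sulfate that sulfotransferases use, was also lower (8.73 to 8.83 against 8.92 to 9.39, difference -0.35 ± 0.10), so that the sulfotransferase gene and this donor gene stood in opposite directions.

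The sulfur amino acid list (44 symbols) was mixed as well. Against the higher Cth, the cystine importer gene Slc7a11 was lower (10.79 to 11.00 in stressed and 11.13 to 11.25 in non-stress rats, difference -0.28 ± 0.08). Chac2, which encodes a glutathione-degrading enzyme, was lower by -0.30 ± 0.09.

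**Figure D5:**
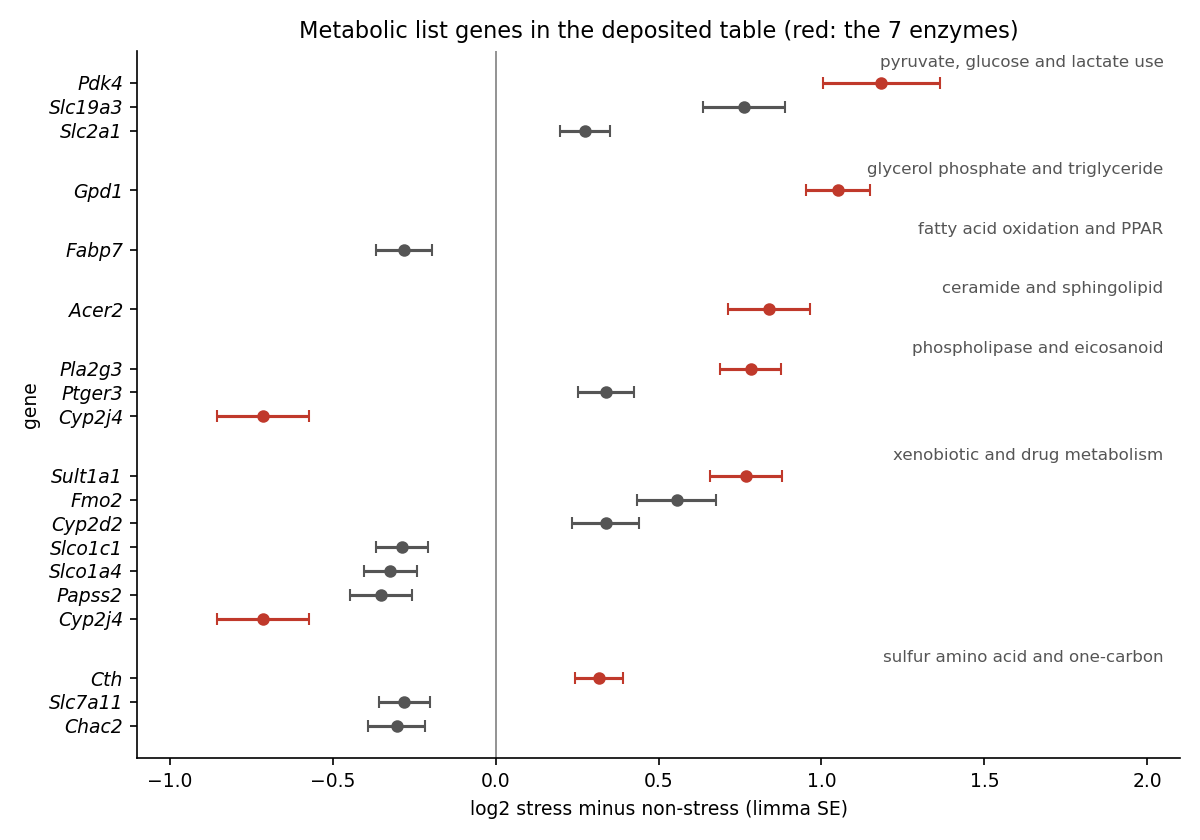
Difference in log2 intensity, stressed minus non-stress rats, with the limma standard error (horizontal axis, n = 4 rats per group) for the genes of 7 metabolic lists found in the deposited table (vertical axis, grouped by list; Cyp2j4 is in 2 lists), with the 7 enzymes in red. Higher and lower genes occur together in the lists for eicosanoids, xenobiotics and sulfur amino acids.

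The cell type markers in the table were chosen on the contrast between the groups, like all of it, so they differ by that choice. All 12 medial habenula markers in the table, of 25 symbols, were lower in the stressed rats, as was 55.4% of the table. Their mean score was -0.28 to -0.23 in the stressed and 0.05 to 0.54 in the non-stress rats. Nothing is read from this count, from those of the other lists or from the distance between the groups' scores. Listed markers outside the table have no values here. The part of the markers in the enzymes' differences was not tested. Within groups Cth had r = -0.85 with this score (exact permutation p = 0.146, adjusted p = 0.393; rho = -0.55, p = 0.267, adjusted p = 0.672), and r was 0.14 without non-stress rats 3 and 4 (exact permutation p = 0.521), so the relation rests on those rats. The other 6 enzymes had r between -0.29 and 0.42. Endothelial markers went both ways, with 3 higher and 3 lower of 17 symbols and scores of -0.04 to 0.11 in stressed and -0.06 to 0.04 in non-stress rats. Microglial and macrophage markers were 1 higher and 2 lower of 15 symbols, with scores of -0.22 to -0.07 in stressed and -0.0016 to 0.27 in non-stress rats. Lateral habenula markers were 1 higher and 1 lower, the thalamic list had 1 gene in the table, which was higher, and the hippocampal list (3 genes) and the meningeal list (2 genes) were lower throughout. The lists are not independent, since Slc17a7 is in both the hippocampal and the medial habenula list. Slco1a4 and Slco1c1 are in both the xenobiotic and the endothelial list. Slc2a1 is in the pyruvate, the glucocorticoid and the endothelial list. For Slc6a13, of the meningeal list, the groups overlapped. Lists for oligodendrocytes, their precursors, astrocytes, mural cells, choroid plexus and ependyma, pineal gland and blood cells had 0 genes in the table. That leaves the levels of these markers unknown here and does not show that they were equal.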

How the data were processed

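Total RNA from the dissected habenula of 8 rats, 4 per group, was amplified and biotin-labelled for an Affymetrix whole-transcript array, per the labels' protocols. The deposited values are on a log2 scale, 1 per probe set and rat; how the authors corrected background, summarized probes and normalized arrays was not stated in the sources used here. Both deposited tables hold 379 probe sets with identical values. The deposited p-value per probe set is the authors' own and is not adjusted. Symbols came from the platform annotation: 283 probe sets had 1, 5 had several and 91 had none, and the gene IDs of all 283 matched the RefSeq table.

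Differences were fitted in R 4.3.3 by limma 3.58.1 (lmFit, eBayes, no covariates, Benjamini-Hochberg over 379 probe sets). Covariation used residuals from group means. The limma fit and the permutation test were tested on simulated data. The enzymes, gene lists and tests were chosen with earlier results of these data known. The genes named are the 7 enzymes, genes of the metabolic and glucocorticoid lists in the table, and per enzyme the 3 genes with the highest residual r and the 1 with the lowest. Adh1c, Ugt2b and the markers Slc17a7 and Slc6a13 are named besides, to show limits of the lists. Scan dates and batches were not stated in the sources used here, so batch effects were not examined. The number of arrays limits the precision. Array scaling, group centre, linear scale, dim probe sets, value source and leaving out each rat were varied.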

Additional observations from a re-analysis of the deposited data

How the results depend on the processing

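The 7 enzymes kept their direction under all scalings, value sources and group centres tried and without each rat in turn. Their differences moved by less than the SD of the group that varied more. Some moved by more than the SD of the other group. Pla2g3 went from 0.78 to 0.89 after quantile normalization, with a non-stress SD of 0.06. Leaving out 1 rat gave differences of 1.03 to 1.44 for Pdk4, 0.99 to 1.14 for Gpd1, 0.77 to 0.98 for Acer2, 0.72 to 0.84 for Pla2g3, 0.68 to 0.88 for Sult1a1, -0.84 to -0.58 for Cyp2j4 and 0.29 to 0.35 for Cth. The groups stayed apart for all 7 in each of those fits. Quantile normalization over the table shifted the median difference of all probe sets by 0.10 and gave 1.27 for Pdk4 and -0.71 for Cyp2j4. The filter on the dimmest 25% of probe sets removed Cyp2j4. The number of within-group relations past the threshold was 0, but 3 after quantile normalization and 3 with the arrays centred on their medians: Pdk4 with Acer2 (r = 0.82 and 0.83), Pdk4 with the glucocorticoid score (0.82 and 0.85) and Acer2 with that score (0.99 and 0.98), each with an adjusted exact permutation p of 0.0203; the cause was not tested. The deposited series values, the filter on dim probe sets, the median score and the fits without 1 rat gave 0; group medians and linear intensities were run for the differences only. No paired analysis was possible because the groups share no rat number. Signal over background could not be judged, since no detection values were given in the sources used here.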

Other observations

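The genes with the lowest within-group r for each enzyme, over the same 8 rats and given as values with no test, were Gpr34, a microglial receptor gene, for Pdk4 (r = -0.93), the Toll-like receptor gene Tlr2 for Gpd1 (-0.82), the decarboxylase gene Ddc for Acer2 (-0.94) and the endothelin gene Edn1 for Pla2g3 (-0.86). For Sult1a1 it was Nipal4 (-0.95), for Cyp2j4 the olfactory receptor gene Or1e20b (-0.97) and for Cth the protease gene Bace2 (-0.96). None of these r was recomputed without any rat. Each of these genes differed between the groups in the opposite direction to its enzyme, for example Gpr34 by -0.58 ± 0.09 and Edn1 by -0.58 ± 0.14. Psmb9, an immunoproteasome subunit gene, was an exception among the nearest genes. It varied with Cth over the 8 rats' deviations (r = 0.87) but was lower in the stressed rats, by -0.58 ± 0.13, where Cth was higher. For Psmb9 the groups overlapped. The non-stress rats weigh most in this r, since both genes varied more among them. Their SD was 0.36 against 0.09 in the stressed rats for Psmb9, and 0.073 against 0.013 for Cth. Median r with the table's other lower probe sets was -0.56 for Cth and 0.34 for Cyp2j4, and between -0.24 and 0.04 for the remaining 5 enzymes. The largest deviations of Cth were in non-stress rats 3 (-0.08) and 4 (0.10). Among the non-stress rats, rat 3 was the highest for 62.9% and rat 4 the lowest for 51.4% of the lower probe sets. These medians were not recomputed without those rats.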
